A study of Pinellia ternata with 12 samples.

Results

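Among the 1597 plant miRNA names to which reads of Pinellia ternata leaf were assigned, 544 carry a number of 5000 or more directly after miR, and the 489 of these with a mean of at least 5 RPM over the 6 small RNA libraries are described here. RPM is the number of reads per 1000000 reads assigned to the listed miRNAs. The name and the mean level chose them, so their levels are given as a description. For a name that reached the mean through 1 group or 1 library alone, the choice itself favoured unequal mean RPM of the groups, without making a call certain. Just inside the limit lay bra-miR9555b-3p with a mean of 5.02 RPM, stu-miR8007a-3p with 5.05 RPM and osa-miR5079a with 5.07 RPM, and just outside it lay stu-miR6024-3p with 4.71 RPM, mtr-miR5216a with 4.51 RPM and sbi-miR6228-3p with 4.47 RPM.

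P. ternata, a medicinal aroid, was grown from tubers at 25 ℃ and 4000 lx with 16 h of light and 8 h of darkness. Wild-type seedlings at the 3-leaf stage were sampled before heat (control, C, day 0) or after 24 h at 40 ℃ (heat, G, day 1), with 3 leaf libraries in each group. The groups follow title, source and day, because the treatment tag reads heat-treated for all 6 libraries. The design text calls the replicates biological without naming plants, and leaf identity was not checked here.

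A miRNA is a short RNA cut from a hairpin precursor and held by an Argonaute protein, which it guides to transcripts with a matching site that are then cleaved or kept from translation. miRNA registry numbers follow the order of discovery. The oldest families, shared by most land plants, have low numbers, whereas most names with high numbers were found in a single species or its close relatives and many have no known target. The letters before miR name that species, for example gra for a wild cotton, bdi for the grass Brachypodium, mtr for the legume Medicago, stu for potato, sly for tomato and ath for Arabidopsis. No P. ternata genome was used, so a name says that reads matched the mature sequence of another plant, not that a precursor was found in P. ternata. Few of these names belong to a registered family, 142 of 489 (29.0%) against 569 of 717 (79.4%) of the names with lower numbers at the same level.

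The mature sequences of the members whose change held with any 1 library left out are shown with stu-miR8051-5p, the most abundant member that rose, from 5′ to 3′ with bases 2 to 8, the seed, in capitals. The first 5 were higher and the last 4 lower under heat, and none shares its seed with another of the 9.
gra-miR8640: uCUGACAGugcacugaaaacg
bra-miR9560b-3p: uCAUAUUAguucuaccuccugcug
bdi-miR7719-3p: uAGAAGCAuauauggcgaaga
sly-miR6023: uUCCAUGAaagaguuuuuggau
stu-miR8051-5p: uAGUAUGGuagaaagauuca
bra-miR5716: uUGGAUAAuugaagauauaaa
hvu-miR5049a: uCCUAAAUacuuguuguuggg
ghr-miR7510b: aAGAACAUgaucuuuagcggcgu
ath-miR5019: uGUUGGGAaagaaaaacucuu

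Abundant members are shown next because most of the reads lay on them, again with bases 2 to 8 in capitals.
tae-miR9773: uUUGUUUUuauguuauuuugugaa
gma-miR5368: gGACAGUCucagguagaca
ptc-miR6478: cCGACCUUagcucaguuggug
hbr-miR6173: aGCCGUAAacgauggauacu

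Some names carry the letters of other RNAs. As background, ptc-miR6478 has the letters of the 5′ end of plant tyrosine tRNA and hbr-miR6173 those of a stretch of plastid 16S ribosomal RNA. gma-miR6300 and ath-miR8175 have the letters of the 5′ and the 3′ end of aspartate tRNA. In gma-miR6300 the first 7 bases are in capitals, and in ath-miR8175 the 7 bases before the last 4. Read antiparallel, these form 6 Watson-Crick pairs and 1 G-U pair, as the arms of a tRNA acceptor stem would. osa-miR5072, bdi-miR5059 and osa-miR5077 are shown with their last bases in capitals, the CCA with which every mature tRNA ends. No tRNA sequence was compared here.
gma-miR6300: GUCGUUGuaguauagugg
ath-miR8175: gauccccggCAACGGCgcca
osa-miR5072: cgauuccccagcggagucgCCA
bdi-miR5059: cggccugggcagcaccaCCA
osa-miR5077: guucgcgucggguucaCCA

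Other names have a run of bases in common. Of those shown, cpa-miR8155 and rgl-miR5139 share 18 bases in a row, so that their reads may not be separable. The other names shown have shorter runs in common. Below, 4 members and ppe-miR1511-3p, a peach name with a lower number, are aligned by the 12 bases they all hold (in capitals, GCUCUGAUACCA), which 20 of all 1597 listed names hold on the strand given (1.25%).
cpa-miR8155: uaaccugGCUCUGAUACCA
rgl-miR5139: aaaccugGCUCUGAUACCA
bdi-miR7782-3p: accuGCUCUGAUACCAuguuguga
bdi-miR7783-3p: aGCUCUGAUACCAuguggaugaga
ppe-miR1511-3p: accugGCUCUGAUACCAuaac

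The second such set holds atr-miR8602, one of the most abundant members, and the 10 bases in capitals (AGGAGAGAUG) stand in 4 of the 489 members (0.818%) and in 20 of all listed names (1.25%). stu-miR4376-5p, with a lower number, shares 15 bases in a row with atr-miR8602. miR4376 in tomato and miR5225 in Medicago are known to target calcium pump transcripts.
atr-miR8602: ucAGGAGAGAUGaugccggcc
mtr-miR5225b: ucgcAGGAGAGAUGacaccuuc
ppe-miR5225-5p: ucugucguAGGAGAGAUGgcgc
stu-miR4376-5p: uacgcAGGAGAGAUGaugcug

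Of the 489 members, 411 were above 0 in every library, and 449 to 488 were detected per library. Between 479324 reads (heat replicate 2) and 2039055 reads (control replicate 2) were assigned per library, so that 1 read stood for 2.09 RPM and 0.490 RPM in these, and a value below a few RPM rests on single reads. Members took 9.20%, 6.0% and 10.6% of the assigned reads in control replicates 1 to 3 and 8.51%, 13.5% and 7.30% in heat replicates 1 to 3. The groups overlapped, and the order of the 6 shares was the reverse of the order of assigned reads, with the smallest share in the deepest library and the largest in the shallowest. The summed RPM of the members outside the 10 most abundant had that reversed rank in 2 of the 6 libraries only. The part of depth in these shares was not tested.

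The 10 most abundant members held 66.6% to 87.4% of the members' RPM in a library, whereas 341 of the 489 had a mean under 20 RPM. The members were 21 bases long in 202 cases (41.3%) and 24 bases long in 172 cases (35.2%), and the names with lower numbers at the same level in 444 of 717 (61.9%) and 60 of 717 (8.37%). In plants, 21 bases is the usual length of a miRNA and 24 bases that of the siRNAs that direct DNA methylation. U was the first base of 237 members (48.5%), the base with which most plant miRNAs begin. The median GC content was 38.1%, against 47.6% for the names with lower numbers.

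Under heat, 13 members were called higher (2.66%) and 25 lower (5.11%). A call needed a p under 0.05, unadjusted, with a log2 fold change beyond 1 in either direction (limma on log2(RPM + 1), 3 libraries against 3). Of all 1597 miRNAs, 2.13% were called higher and 7.14% lower, so the members' share was near the background for higher calls and under it for lower calls. Among the 1206 names with a mean of at least 5 RPM, the shares were 2.65% and 8.54%. The log2 fold change of the members had a median of -0.30, with 187 of 489 above 0, beside -0.37 for all listed names and -0.53 for the names with lower numbers at the same level. Rescaling each library by its median ratio moved the median of all miRNAs by 0.15 on the log2 scale and turned the split of the members into 23 higher and 16 lower. The counts also moved with single libraries: 5 members were called higher and 13 lower when heat replicate 2 was left out. Leaving out control replicate 1 gave 8 and 18, control replicate 2 gave 10 and 9, and heat replicate 1 gave 14 and 15.

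One miRNA, the member gra-miR8640, kept an adjusted p under 0.05, which is 0.0626% of all listed names. The other 37 calls had adjusted p-values of 0.304 to 0.527, so that they rest on the unadjusted threshold. The groups did not overlap for 25 members with heat above control (5.11%, against 4.51% of all listed names) and for 41 with heat below (8.38%, against 9.89%). Among the 1206 names with a mean of at least 5 RPM, these shares were 5.22% and 11%. Called shares of members are given next by level and by length. Shares of all listed names at the same level or length were not computed. The 9.35% and 9.90% below are near the 9.27% of all listed names, and log2(RPM + 1) shrinks the change of low members. Of the 341 members under 20 RPM, 4 were higher and 14 lower, together 5.28%, beside 9.27% of all listed names. Of the 107 members between 20 and 100 RPM, 4 were higher and 6 lower (9.35%), and of the 41 at 100 RPM and above, 5 and 5 (24.4%). Among members of 21 bases, 7 were higher and 13 lower (9.90%), and among those of 24 bases, 2 and 5 (4.07%).

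**Figure D1:**
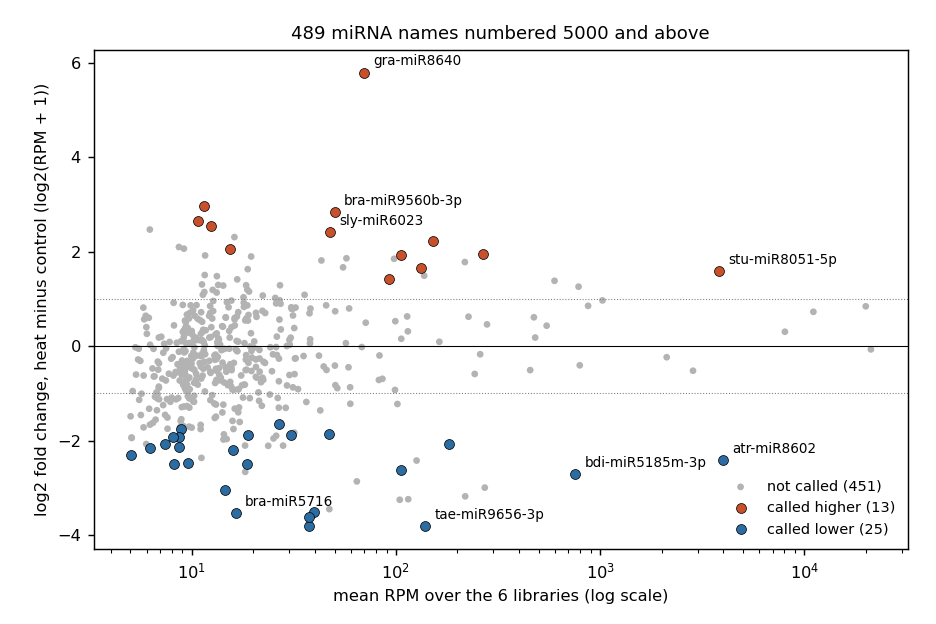
Mean RPM over the 6 libraries (x axis, log scale) against the log2 fold change of heat minus control on log2(RPM + 1) (y axis) for the 489 members, 1 point each, with the 13 called higher in orange, the 25 called lower in blue and dotted lines at a log2 fold change of 1 in either direction. gra-miR8640 stands apart at 5.79, and called members lie at all levels from stu-miR8007a-3p (5.05 RPM) to atr-miR8602 (3988 RPM).

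gra-miR8640, a cotton name without a known target, was almost absent from control leaves. It stood at 2.17, 0.490 and 2.29 RPM in control replicates 1 to 3, which came from 2, 1 and 2 reads, and at 118, 161 and 138 RPM in heat replicates 1 to 3, with 122, 77 and 203 reads. Every heat library was far above every control library. The log2 fold change was 5.79 ± 0.62 (SE, adjusted p = 0.0175 by limma over 1597 miRNAs). It ranged from 5.42 to 5.99 with 1 library left out, where the adjusted p stayed under 0.05 only without control replicate 2 (0.0414) and reached 0.441 without heat replicate 3.

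bra-miR9560b-3p, a Brassica name of 24 bases, stood at 8.66, 6.87 and 11.5 RPM in the controls and at 44.3, 189.9 and 39.3 RPM under heat. The groups did not overlap, and heat replicate 2 was the highest of the 3. It rose by a log2 fold change of 2.84 ± 0.74 (SE, adjusted p = 0.341 by limma) and 2.12 without that library. bra-miR9560a-3p, which has 21 of the bases in a row in common with it, had a mean under 5 RPM and was no member.

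sly-miR6023, which in tomato and its relatives guides the cleavage of disease resistance receptor transcripts, stood at 7.58, 16.2 and 13.8 RPM in the controls and at 45.3, 159 and 44.1 RPM under heat. Again every heat library was above the controls, with heat replicate 2 the highest. This gave a log2 fold change of 2.42 ± 0.70 (SE, adjusted p = 0.437 by limma) and 1.82 without heat replicate 2. bdi-miR7719-3p, a Brachypodium name, stood at 1.08, 6.87 and 2.29 RPM in the controls, from 1, 14 and 2 reads, and at 22.2, 25.0 and 16.9 RPM under heat. Its 3 heat libraries lay close together, and the log2 fold change was 2.55 ± 0.75 (SE, adjusted p = 0.443 by limma). These 4 members were called in all 6 fits with 1 library left out and in the other 8 alternatives.

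stu-miR8051-5p, a potato name, was the most abundant of the members that rose. It stood at 1853, 1123 and 2613 RPM in the controls and at 6936, 7623 and 2807 RPM under heat, with heat replicate 3 only just above control replicate 3. The log2 fold change was 1.59 ± 0.60 (SE, adjusted p = 0.510 by limma). The call of stu-miR8051-5p was lost with a replicate block, and without control replicate 1 (1.63), control replicate 2 (1.27), heat replicate 1 (1.39) or heat replicate 2 (1.33). Its other arm, stu-miR8051-3p, had 32.5, 68.2 and 16.1 RPM in the controls and 40.5, 41.7 and 29.1 RPM under heat, a log2 fold change of 0.15 that was not called.

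mtr-miR5558-3p stood at 76.9, 48.1 and 279 RPM in the controls and at 371, 515 and 317 RPM under heat, with a log2 fold change of 1.95 ± 0.69 (SE). osa-miR5083, a rice name, stood at 43.3, 37.8 and 106 RPM and at 143, 359 and 112 RPM, with 1.66 ± 0.65 (SE). In both, control replicate 3 came close to the heat libraries. Both calls were lost without control replicate 1, control replicate 2, heat replicate 1 or heat replicate 2. The log2 fold changes in these 4 fits were 1.42 to 1.99 for mtr-miR5558-3p and 1.17 to 1.83 for osa-miR5083. Both calls were also lost with edgeR on the recovered reads (1.62 and 1.73), that of mtr-miR5558-3p with DESeq2 (1.67) and that of osa-miR5083 with a replicate block.

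nta-miR6020b, one of the tobacco miRNAs known to target a virus resistance receptor, stood at 57.4, 31.4 and 51.6 RPM in the controls and at 59.8, 198 and 157 RPM under heat. Heat replicate 1 lay next to control replicate 1, and the log2 fold change was 1.42 ± 0.62 (SE). With 1 library left out the call held only without heat replicate 1 (1.93). It was lost with edgeR (1.60), a pseudocount of 5 RPM, scaling to the clean reads of the study and a replicate block. Fitting only miRNAs with a mean of at least 5 RPM lost it too, and 4 of the 14 alternatives kept it. bdi-miR5057 stood at 28.1, 37.3 and 27.5 RPM and at 81.0, 682 and 57.6 RPM, where heat replicate 2 alone held 74.7% of the summed RPM. The log2 fold change of 2.23 ± 0.90 (SE) became 1.13 without that library and was then not called.

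The last 2 rises with groups apart rested on few reads. bdi-miR7755-5p stood at 1.08, 1.47 and 1.15 RPM in the controls, from 1, 3 and 1 reads, and at 1.93, 27.1 and 31.9 RPM under heat, so that heat replicate 1 stayed near the controls (log2 fold change 2.65 ± 1.02, SE). That call held only without heat replicate 1, at 3.77. osa-miR5155 stood at 1.08, 7.85 and 6.88 RPM and at 50.1, 14.6 and 12.2 RPM (2.06 ± 0.88, SE), and no fit with 1 library left out called it. A further pair, osa-miR5523 and bdi-miR5164, were called higher at 1.94 and 2.97 while their groups overlapped.

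Among the falls, 4 held in all 6 fits with 1 library left out. bra-miR5716, a Brassica name, stood at 18.4, 34.8 and 40.1 RPM in the controls and at 0.964, 2.09 and 2.03 RPM under heat, where it had 1, 1 and 3 reads. The heat libraries were all near the level of single reads, and the log2 fold change was -3.53 ± 0.69 (SE, adjusted p = 0.304 by limma). hvu-miR5049a, a barley name, stood at 22.7, 28.9 and 177 RPM in the controls and at 2.89, 2.09 and 6.10 RPM under heat, from 3, 1 and 9 reads. Control replicate 3 was the highest of the controls, and the log2 fold change of -3.51 ± 0.90 (SE, adjusted p = 0.341 by limma) was -2.60 without it.

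ghr-miR7510b and ath-miR5019 fell outside the rule for named miRNAs and were chosen after their values were seen. ghr-miR7510b, an upland cotton name, stood at 328, 187 and 367 RPM in the controls and at 107, 41.7 and 66.4 RPM under heat, with a log2 fold change of -2.06 ± 0.56 (SE, adjusted p = 0.341 by limma). ath-miR5019, an Arabidopsis name, stood at 42.2, 47.6 and 56.2 RPM and at 11.6, 12.5 and 12.9 RPM, with -1.89 ± 0.54 (SE, adjusted p = 0.419 by limma). The libraries of a group lay closer together in ath-miR5019 than in the other falls named here. Of these 4 falls, ghr-miR7510b alone was lost in another alternative, edgeR on the recovered reads (-1.74).

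**Figure D2:**
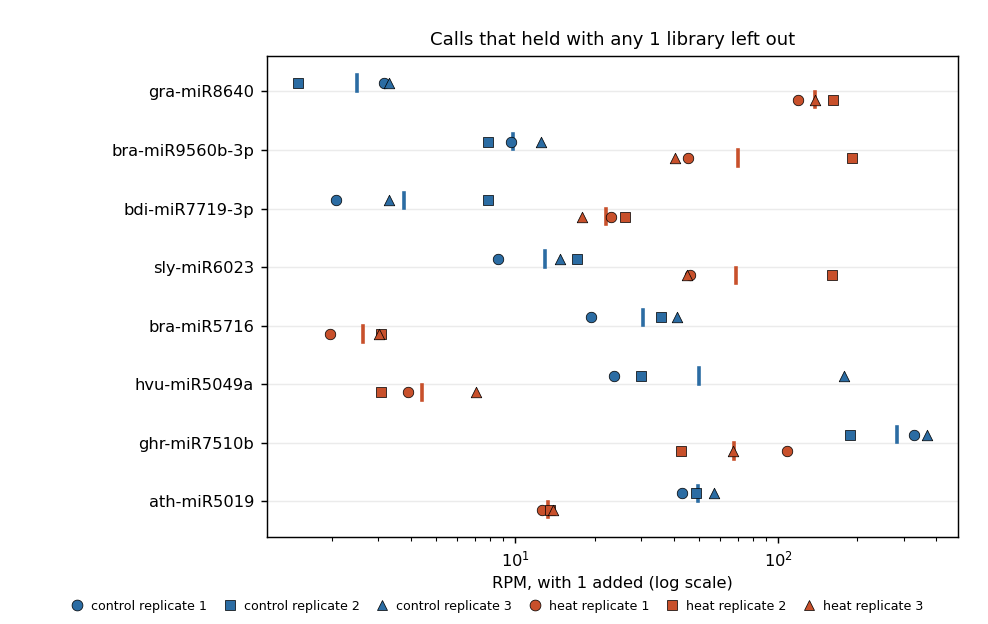
RPM with 1 added (x axis, log scale) of the 8 members whose call held with any 1 library left out, in the 3 control libraries (blue) and the 3 heat libraries (orange), with the marker shape giving the replicate and vertical bars the group means on the log2 scale. In each of the 8, all points of one group lie apart from those of the other, most widely in gra-miR8640 (0.490 to 2.29 RPM against 118 to 161 RPM).

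The other falls were lost in 1 or more of these fits. tae-miR9656-3p, a wheat name, stood at 102, 149 and 483 RPM in the controls and at 0, 48.0 and 54.2 RPM under heat, with a log2 fold change of -3.81 ± 1.48 (SE) that was -1.91 without heat replicate 1, the library listed at 0. That call was lost without any 1 of the controls and with edgeR (-3.02). mtr-miR5217 stood at 22.7, 52.5 and 131 RPM and at 4.82, 0 and 14.2 RPM, with -3.63 ± 1.10 (SE), lost without control replicate 2 or 3. bra-miR9408-5p stood at 70.4, 111 and 349.8 RPM and at 3.86, 43.8 and 54.9 RPM, with -2.62 ± 1.03 (SE), lost without control replicate 2, control replicate 3 or heat replicate 1 (-1.49). In all 3, control replicate 3 was the highest library.

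In another set, control replicate 2 was the highest. ath-miR5649a stood at 9.74, 70.6 and 3.44 RPM in the controls and at 0.964, 0 and 2.03 RPM under heat, with a log2 fold change of -3.05 ± 1.10 (SE) that was -1.93 without control replicate 2, and the call was lost without control replicate 1, heat replicate 1 or heat replicate 2. gma-miR5376, a soybean name, stood at 18.4, 68.2 and 11.5 RPM and at 1.93, 2.09 and 9.49 RPM (-2.49 ± 0.91, SE), and it was lost without control replicate 1, control replicate 2, heat replicate 1 or heat replicate 2. bdi-miR7721-3p stood at 6.50, 69.1 and 10.3 RPM and at 2.89, 2.09 and 4.07 RPM (-2.20 ± 0.95, SE). It held only without control replicate 1, and without control replicate 2 the value was -1.23. Its other arm, bdi-miR7721-5p, was highest in control replicate 3 instead and was not called.

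The 4 remaining falls of the named rule were low. bdi-miR5069, stu-miR8007a-3p, atr-miR8614 and gra-miR7584e had control means of 14.6, 9.01, 10.9 and 12.4 RPM and heat means of 1.82, 1.09, 1.55 and 2.41 RPM, and each was listed at 0 in 1 heat library. Their log2 fold changes were -2.49, -2.32, -2.16 and -2.08, and they held in 3, 5, 2 and 1 of the 6 fits with 1 library left out. Of the 25 falls, 20 had groups apart. The other 5 overlapped, among them bdi-miR5185m-3p with 129, 849 and 3128 RPM in the controls and 292, 37.6 and 108 RPM under heat.

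Of the 10 most abundant members, stu-miR8051-5p and atr-miR8602 were called and the other 8 were not. The called share was 24.4% of members at 100 RPM and above and 9.27% of all listed names. tae-miR9773, the most abundant, stood at 37989, 16484 and 12536 RPM in the controls and at 12648, 18574 and 28966 RPM under heat. Its groups lay across the same range, with a log2 fold change of -0.07 ± 0.67 (SE). atr-miR8602, an Amborella name, stood at 5732, 2269 and 10798 RPM and at 4042, 282 and 806 RPM. Heat replicate 1 lay within the range of the controls, and the log2 fold change was -2.42 ± 1.00 (SE, adjusted p = 0.523 by limma). With 1 library left out it was called only without heat replicate 1 (-3.44). The call was lost with edgeR and DESeq2 (-1.45 in both), median ratio rescaling (-2.17) and scaling to the clean reads of the study (-2.48). stu-miR4376-5p, the relative of atr-miR8602 with the lower number, stood at 16256, 5823 and 27878 RPM and at 26975, 8053 and 10088 RPM. mtr-miR5225b, which holds the same 10 bases, had 136 RPM in control replicate 2 and at most 4.17 RPM elsewhere, and ppe-miR5225-5p had 93.9 RPM in heat replicate 2 and 6.87 to 21.7 RPM elsewhere.

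**Figure D3:**
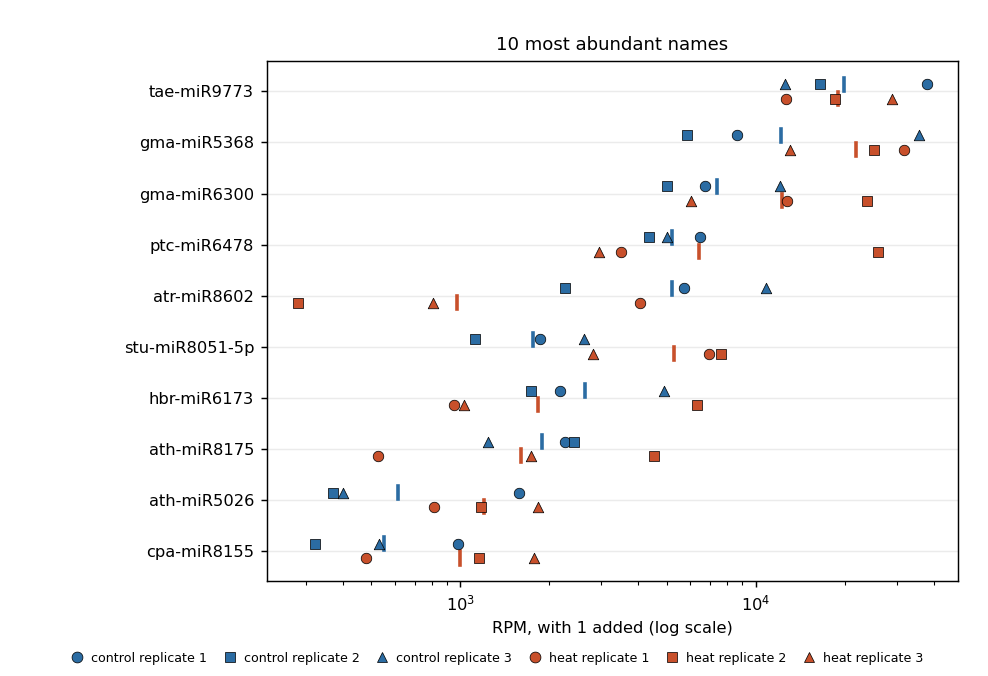
RPM with 1 added (x axis, log scale) of the 10 most abundant members in the 3 control libraries (blue) and the 3 heat libraries (orange), with the marker shape giving the replicate and vertical bars the group means on the log2 scale. Groups overlap in 9 of the 10, and heat replicate 2 lies apart to the right for ptc-miR6478 at 25951 RPM.

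A list of 8 names, picked as resembling pieces of tRNA or ribosomal RNA, held 48.9% of the members' summed mean RPM. None of the 8 was called, beside 9.27% of all listed names, and so few names cannot show a difference from that share. The most abundant of the 8 was gma-miR5368, with a mean of 20002.5 RPM, and no RNA that it resembles is given here. gma-miR5368, gma-miR6300, ptc-miR6478 and hbr-miR6173 do not end in CCA. None of the 8 was matched to a tRNA or ribosomal RNA sequence here. ptc-miR6478, with the letters of a tyrosine tRNA end, stood at 6476, 4360 and 5006 RPM in the controls and at 3487, 25951 and 2943 RPM under heat. Heat replicate 2 was above and the other 2 heat libraries were below every control. The log2 fold change was 0.30 ± 0.85 (SE), and -0.70 without heat replicate 2. gma-miR6300 stood at 6718, 5006 and 12086 RPM and at 12768, 23844 and 6056 RPM. ath-miR8175, with the letters of the other end of aspartate tRNA, stood at 2253, 2428 and 1235 RPM and at 526, 4536 and 1736 RPM. This pair of names thus moved unequally from library to library. Heat replicate 1 was the second highest for gma-miR6300 and the lowest for ath-miR8175. Whether both come from the same tRNA was not tested.

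hbr-miR6173, with the letters of a plastid ribosomal stretch, stood at 2175, 1729 and 4882 RPM and at 952, 6342 and 1027 RPM, with a log2 fold change of -0.52 ± 0.82 (SE). gma-miR5368 stood at 8645, 5854 and 35607 RPM and at 31703, 25123 and 13083 RPM, with 0.84 ± 0.80 (SE). The 3 further names with CCA, osa-miR5072, bdi-miR5059 and osa-miR5077, had control means of 153, 413 and 52.4 RPM and heat means of 300.1, 549 and 48.1 RPM. Heat replicate 2 was the highest library for 7 of the 8 names and heat replicate 1 the lowest for 5. Over the list, chosen with earlier results known, the median log2 fold change was 0.24, beside -0.37 for all listed names. 11 members ended in CCA (2.25%), against 14 of 717 names with lower numbers (1.95%). None of the 11 was called, beside 9.27% of all listed names, and these too are few names to set against that share. Per the study's methods, matches to ribosomal RNA, snRNA and snoRNA were removed and tRNA was not named, and the part of tRNA ends in these values was not tested.

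Sequence relatives did not always move together. The 4 members with GCUCUGAUACCA were all uncalled, at log2 fold changes of 0.85, 0.61, 0.09 and 0.35. cpa-miR8155, which differs from rgl-miR5139 in its first base, stood at 978, 321 and 530 RPM in the controls and 479, 1154 and 1778 RPM under heat, and rgl-miR5139 at 343, 174 and 699 RPM and 464, 451 and 713 RPM. ppe-miR1511-3p stood at 65.0, 62.8 and 52.8 RPM and 29.9, 45.9 and 95.6 RPM. In all, 46 members fell into 19 clusters with at least 12 consecutive bases in common, and 39 members had such a run in common with a listed name that is no member, for 18 of them most closely with a name under 5000. Of the 19 clusters, 5 held a called member, where 9.27% of all listed names were called, and 1 held more than 1. In that cluster mtr-miR5558-3p rose and gra-miR8766 fell, from 9.74, 28.9 and 5.74 RPM in the controls to 1.93, 2.09 and 3.39 RPM under heat (log2 fold change -1.92 ± 0.80, SE), a call that was lost without any library other than control replicate 3. ghr-miR7510b has 18 bases in a row in common with ghr-miR7510a, which had 52.0 RPM in control replicate 2 and at most 0.964 RPM elsewhere.

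Both arms of 1 precursor were members in 33 pairs. In 21 of the 33 the 2 arms had the same sign, in 3 pairs 1 arm was called, and in none were both. Of all members 7.77% were called, and of all listed names 9.27%. The arms were most unequal in bdi-miR5185m, with a mean of 757 RPM for the 3p arm and 7.40 RPM for the 5p arm, and in stu-miR8051, with 3826 RPM for the 5p arm and 38.0 RPM for the 3p arm. In a miRNA precursor, 1 arm is usually kept in Argonaute and the other is degraded. Bases 2 to 8 were shared within 31 groups of members, 64 members in all.

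A hand-picked list holds 12 members of miRNAs with a target known in another plant. It is not a count of all such members. Both arms of ppe-miR5225 and of stu-miR7122 are on it, the 3p arms with log2 fold changes of 1.19 and 2.47. sly-miR6023 and nta-miR6020b rose, as given above, and the other 10 were not called (16.7% called, beside 9.27% of all listed names). The median of the 12 was 0.77, beside -0.37 for all listed names. The list was chosen with earlier results known, so nothing is read from this median. stu-miR6024-3p and ata-miR5168-5p, of the same list but under 5 RPM, had log2 fold changes of -0.68 and -0.78. nta-miR6024, whose relatives guide the cleavage of resistance genes in the tomato family, was level, at 10.8, 8.34 and 10.3 RPM in the controls and 9.64, 10.4 and 10.8 RPM under heat. bdi-miR5179, which in grasses and orchids targets a DEFICIENS-like floral MADS-box gene, stood at 19.5, 4.41 and 5.74 RPM and at 27.0, 20.9 and 35.2 RPM. All its heat libraries were above the controls, and the log2 fold change of 1.63 ± 0.72 (SE) missed the threshold. ppe-miR5225-3p was also higher in every heat library (8.66, 6.87 and 5.74 RPM against 11.6, 16.7 and 26.4 RPM) without a call. ata-miR5200-5p, of a family that in Brachypodium targets the flowering gene FT, stood at 23.8, 5.40 and 1.15 RPM and at 5.78, 10.4 and 15.6 RPM. stu-miR6022 was lower in the heat libraries on average, at 0 to 5.42 RPM against 3.44 to 21.1 RPM, with overlap. The miR7122 names, which in peach and relatives start the making of secondary siRNAs from pentatricopeptide repeat genes, were 3 uncalled members at means of 6.23 to 13.1 RPM.

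Many members were high in a single library. In 62 of the 489 (12.7%), 1 library held at least 70% of the RPM summed over the 6. The share was 18.1% of all listed names but 13.7% of the 1206 with a mean of at least 5 RPM, near that of the members. For the 62, that library was control replicate 2 in 46 cases, control replicate 3 in 8, control replicate 1 in 5 and heat replicate 2 in 3. Control replicate 2, the deepest library, was the highest library for 186 members, and heat replicate 1 was the lowest for 171. The part of depth in this was not tested. Of the 62, 5 were called (8.06%, beside 7.77% of all members and 9.27% of all listed names), bdi-miR5057, hvu-miR5049a, ath-miR5649a, bdi-miR7721-3p and cme-miR7129.

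Some abundant members of the 62, chosen after their values were seen, are given here. The 4 of the highest mean were highest in a control library, and the fifth was bdi-miR5057, highest in heat replicate 2 as given above. sly-miR5302b-5p had 2521 RPM in control replicate 3, from 2198 reads, and 5.41 to 96.0 RPM elsewhere. ath-miR5653 had 1574 RPM in control replicate 2, from 3209 reads, and 4.17 to 23.8 RPM elsewhere. Of the same kind was bna-miR6029, with 617 RPM in control replicate 3 and at most 2.94 RPM elsewhere. mtr-miR5298d had 1188 RPM in control replicate 3, 226 RPM in heat replicate 1 and 17.3 to 60.3 RPM elsewhere. gra-miR5741 and mtr-miR5741a had 752 and 386 RPM in control replicate 2 and at most 2.09 RPM elsewhere, mtr-miR5741a being listed at 0 in all 5 other libraries. mtr-miR5559-5p and sbi-miR5565g-3p were high in 2 libraries instead, at 946 and 333 RPM and at 533 and 127 RPM in control replicates 1 and 2, with at most 14.6 RPM in the rest. Where 1 library held most of the RPM, the mean RPM of its group followed that library. The log2 fold changes here are on log2(RPM + 1) instead, and sly-miR5302b-5p had -0.51 with means of 846 RPM in control and 62.6 RPM in heat.

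**Figure D4:**
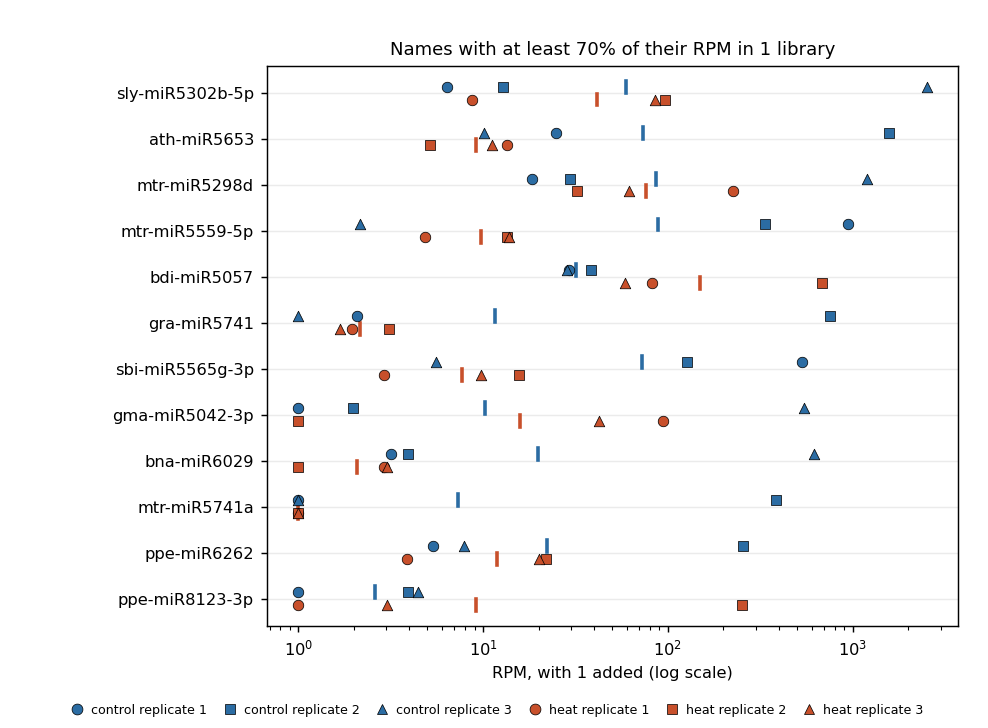
RPM with 1 added (x axis, log scale) of 12 members with at least 70% of their summed RPM in 1 library, in the 3 control libraries (blue) and the 3 heat libraries (orange), with the marker shape giving the replicate and vertical bars the group means on the log2 scale. The far point at the right belongs to control replicate 3 for sly-miR5302b-5p (2521 RPM), to control replicate 2 for ath-miR5653 (1574 RPM) and to heat replicate 2 for ppe-miR8123-3p (250.4 RPM).

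The study names 7 members in its text or pairs them with predicted target unigenes. They were picked on these libraries, so their direction is no independent evidence. hvu-miR6214, a barley name, is shown with bases 2 to 8 in capitals, and it is 1 of 4 members in which a triplet is repeated at least 4 times in a row.
hvu-miR6214: cGACGACGacgagcacgaca

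hvu-miR6214 stood at 13.0, 4.90 and 5.74 RPM in the controls, from 12, 10 and 5 reads, and at 28.9, 16.7 and 10.2 RPM under heat, from 30, 8 and 15 reads. Heat replicate 3 lay under control replicate 1, and the log2 fold change of 1.14 ± 0.72 (SE, adjusted p = 0.659 by limma) was not called. osa-miR5795 stood at 11.9, 7.85 and 14.9 RPM and at 19.3, 27.1 and 26.4 RPM, with groups apart and 1.04 ± 0.60 (SE). mtr-miR5561-3p stood at 8.66, 40.2 and 33.3 RPM and at 5.78, 6.26 and 8.81 RPM, with -1.61 ± 0.76 (SE).

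The other 4 were each highest in 1 library. ppe-miR8123-3p stood at 0, 2.94 and 3.44 RPM in the controls and at 0, 250.4 and 2.03 RPM under heat, a log2 fold change of 1.81 ± 1.87 (SE) that was -0.58 without heat replicate 2. ppe-miR6275 had 85.5 RPM in heat replicate 2 and 0.981 to 12.6 RPM elsewhere, ppe-miR6262 had 256 RPM in control replicate 2 and 2.89 to 20.9 RPM elsewhere, and bdi-miR7713-5p had 210.1 RPM in heat replicate 1 and 8.03 to 31.2 RPM elsewhere. None of the 4 was called.

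Of the 15 unigenes (transcripts assembled without a genome) that the study pairs with 6 of these members, 10 were lower and 2 higher in the RNA-seq libraries of the same design (limma on log2(TPM + 1), adjusted p under 0.05 and log2 fold change over 1), where 4.05% were lower and 6% higher of all 68978 unigenes tested. TPM is the abundance of a transcript per 1000000 transcripts. The study chose the pairs for opposite changes on these libraries, so nothing is read from this count. For hvu-miR6214, 8 of its 10 unigenes were lower. A mavicyanin unigene (TRINITY_DN71342_c3_g1), a blue copper protein, stood at 240.3, 255 and 229 TPM in the controls and at 89.4, 52.0 and 50.9 TPM under heat, a log2 fold change of -1.95 ± 0.27 (SE, adjusted p = 0.00257 by limma). A second mavicyanin unigene (TRINITY_DN65549_c0_g2) stood at 68.6, 82.3 and 51.3 TPM and at 35.6, 14.3 and 14.6 TPM. The xyloglucan glycosyltransferase unigene (TRINITY_DN66656_c2_g2), of an enzyme class that builds a cell wall sugar chain, stood at 3.88, 5.06 and 12.4 TPM and at 1.76, 0.876 and 0.740 TPM.

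The expansin unigene paired with ppe-miR8123-3p (TRINITY_DN54325_c0_g2), of a protein that loosens cell walls, stood at 9.15, 8.47 and 13.6 TPM in the controls and at 0.181, 0.902 and 3.09 TPM under heat, although the miRNA was high in 1 heat library only. The unigene paired with mtr-miR5561-3p (TRINITY_DN70248_c0_g1) was higher, at 83.2, 87.3 and 95.5 TPM and at 199.6, 291 and 146 TPM, as was that paired with ppe-miR6262 (TRINITY_DN55866_c0_g1), at 5.99, 2.68 and 3.24 TPM and at 9.38, 18.7 and 16.6 TPM. The unigene paired with ppe-miR6275 (TRINITY_DN41916_c0_g1) was lower, at 12.9, 13.6 and 23.1 TPM and at 3.92, 1.28 and 4.64 TPM. The isoflavone reductase unigene paired with osa-miR5795 (TRINITY_DN61930_c1_g1) was not called, at 49.3, 25.4 and 85.5 TPM and at 24.8, 18.9 and 21.2 TPM. For all 6 members the miRNA itself was not called here, by limma on log2(RPM + 1). The study, which used edgeR on read counts, lists all 6 as changed. Without heat replicate 2, only 7 of the 15 unigenes were called.

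**Figure D5:**
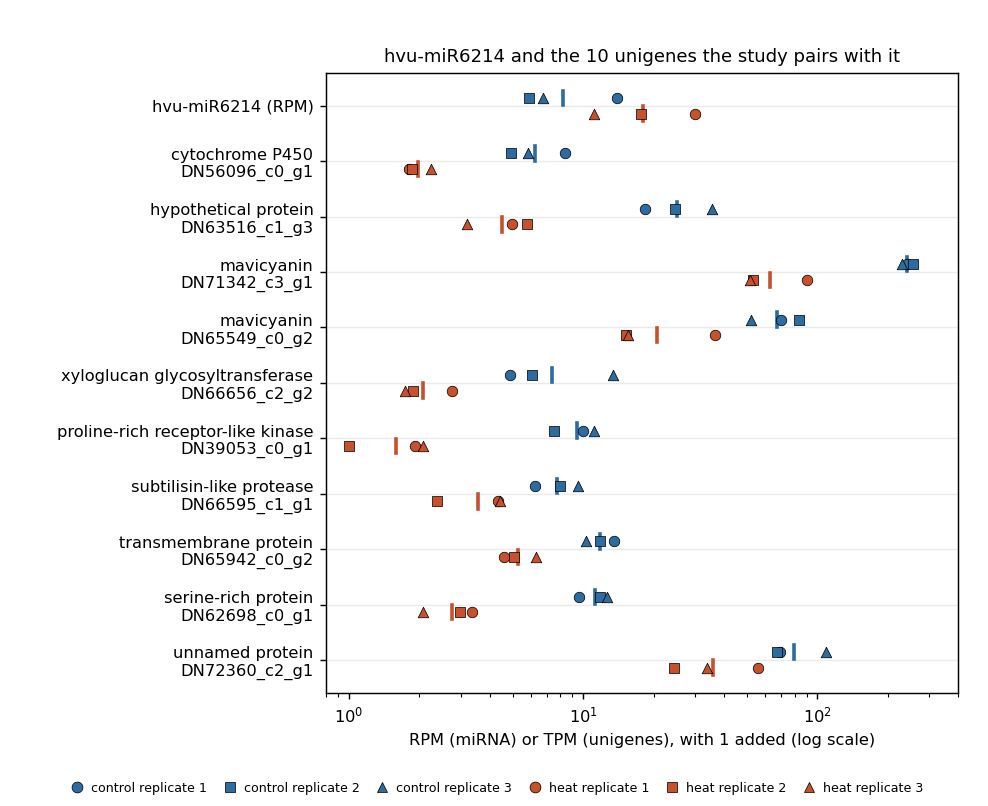
Values with 1 added (x axis, log scale) of hvu-miR6214 (RPM, top row) and of the 10 unigenes the study pairs with it (TPM), in the 3 control libraries (blue) and the 3 heat libraries (orange), with the marker shape giving the replicate and vertical bars the group means on the log2 scale. The groups overlap for the miRNA and lie apart for all 10 unigenes, 8 of which were called lower.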

How the data were processed

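For the miRNA values, the authors clipped adapters (cutadapt), filtered reads by length (17 to 35 bases) and quality (trimmomatic), took out Rfam matches (BLASTN) and assigned what was left to mature miRNAs listed for other plants. The deposited unit is RPM. For the unigenes, the authors assembled reads with Trinity and deposited TPM from Salmon. Versions are not given in the sources used here. Each RPM column summed to 1000000, and all 9582 values were whole reads within 0.01 reads after division by the RPM of 1 read.

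All 1597 miRNAs were fitted with limma 3.58.1 in R 4.3.3 (eBayes with trend, two-sided) on log2(RPM + 1), which shrinks the change of low miRNAs. The study's thresholds were used for calls (unadjusted p under 0.05, log2 fold change beyond 1 in either direction), with limma in place of its edgeR test. Benjamini-Hochberg adjustment was over all 1597. Unigenes averaging 1 TPM or more (68978) were fitted likewise on log2(TPM + 1). edgeR 4.0.16 and DESeq2 1.42.0 on the recovered reads, other pseudocounts, filters and scalings, omission of each library and a replicate block were alternatives. The code was tested on simulated data. With 3 libraries a group, p-values set the group difference against the spread between these libraries, which limma moderates over all rows fitted.

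Named miRNAs were the 10 most abundant, up to 12 largest rises and falls that were called with groups apart (11 rises existed), the members the study names, 2 lists and examples of shared sequences. Members and lists were chosen with earlier results of these data known. Mature sequences come from the study's supplementary list.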

Additional observations from a re-analysis of the deposited data

How the results depend on the processing

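The count of members called higher was 13 and that of members called lower 25. Rescaling by the median ratio gave 23 higher and 16 lower, edgeR with TMM 21 and 42, DESeq2 26 and 32, and scaling to the clean reads of the study 13 and 15. At an adjusted p under 0.05 the counts were 1 and 0 (25 lower at an unadjusted p), where edgeR gave 0 and 0 and DESeq2 5 and 6. Of members with a mean of at least 20 RPM, 11 were lower. With 1 library left out, 5 to 14 were higher and 9 to 33 lower. All 38 called members kept their direction in each of the 14 refits, and 4 rises and 3 falls were called in all of them. Of the 13 rises, 9 were also called by edgeR and 12 by DESeq2, and of the 25 falls, 16 and 17. Of the 15 paired unigenes, 12 were called, 5 without the filter on low values, and 7 to 14 with 1 library left out. The pseudocounts moved no count by over 1.5 times. Replicate numbers were not used to pair the libraries in the main fit. After removal of group means, same-numbered libraries correlated at -0.08, 0.10 and -0.09 and the others at -0.15 to 0.21. With 3 libraries a group, these values cannot decide whether the libraries were paired. The replicate block gave 9 higher and 17 lower members, with gra-miR8640 at an adjusted p of 0.206 by limma, and 11 unigenes. Low members rest on single reads, above all in heat replicate 2.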
